A study of Mus musculus with 6 samples.

Results

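The miR-30 family was followed in bone marrow-derived macrophages with and without Dicer, the enzyme that removes the loop of precursor hairpins and so releases mature microRNAs. The members are the guide strands miR-30a, miR-30b, miR-30c, miR-30d and miR-30e, found by name among the TaqMan RT-PCR assays of the study. All 5 were present, each with 1 assay, among 596 miRNA assays. Dicer KO macrophages came from 3 LysM-Cre/Dicerflox/flox/Apoe-/- mice and Dicer WT macrophages from 3 LysM-Cre/Dicerwt/wt/Apoe-/- mice, all male and 6 to 8 weeks old. Both genotypes therefore lack Apoe and carry LysM-Cre, whose recombinase is expressed in myeloid cells. Macrophages were grown out of femoral marrow over 7 days with L929-conditioned medium, which supplies the growth factor M-CSF. The comparison addresses how far each member depends on Dicer. Dicer mRNA was not among the assays, so the extent of the deletion in each culture was not checked.

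MicroRNAs of the miR-30 family pair with messenger RNAs through a shared seed, bases 2 to 8 of the mature strand, and so have overlapping sets of predicted targets. They are broadly expressed. In cultured endothelial cells the family is known to repress the Notch ligand Dll4, in human cancer cell lines miR-30a represses the autophagy gene Beclin 1, and in mouse liver miR-30c lowers lipoprotein secretion through Mttp, the microsomal triglyceride transfer protein. Their hairpins lie in the mouse genome as neighbouring pairs, Mir30a with Mir30c-2, Mir30e with Mir30c-1 and Mir30b with Mir30d, and miR-30c is made from 2 of these hairpins. In the RefSeq gene table of GRCm38.p6, Mir30e and Mir30c-1 lie within the bounds of Nfyc, a gene for a CCAAT-binding transcription factor subunit.

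The mature sequences show what the members share and where they part. RefSeq (GRCm38.p6) sequences were matched by name for 3 of the 5 members, miR-30a, miR-30c and miR-30e. They are given 5′ to 3′ with the seed in capitals, beside miR-384-5p, which was the only other name among 1679 mature sequence names of that table with the same 7 bases.
miR-30a: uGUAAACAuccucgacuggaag
miR-30c: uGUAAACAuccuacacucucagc
miR-30e: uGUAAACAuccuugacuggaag
miR-384-5p: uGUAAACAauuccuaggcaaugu
Counted from 1 at the 5′ end, miR-30a and miR-30e differed over 22 bases by 1 substitution, C13U, and miR-30a and miR-30c by 5, the first of them C13A. These 3 members had the same first 12 bases. miR-384-5p parted from miR-30a at base 9 (U9A). miR-30a and miR-30e thus share the 3′ part of the strand, whereas miR-30c has its own. Signal of 1 member in the assay of another was not measured.

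The RefSeq hairpins are shown for miR-30a and for 1 of the 2 loci of miR-30c. The excision of their loop is the step that Dicer carries out. Both are printed as RNA, 5′ to 3′, with the 2 mature arms in capitals. The loop between the arms and the flanking bases outside them are in lower case. The Mir30a hairpin lies at chr1:23272269-23272339 on the + strand and the Mir30c-1 hairpin at chr4:120769534-120769622 on the - strand (GRCm38.p6, RefSeq).
Mir30a: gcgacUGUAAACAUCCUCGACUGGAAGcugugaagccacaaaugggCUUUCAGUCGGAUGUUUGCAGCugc
Mir30c-1: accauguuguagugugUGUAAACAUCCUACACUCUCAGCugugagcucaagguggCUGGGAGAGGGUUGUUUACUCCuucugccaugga
In both the guide strand is the 5′ arm. Between the arms lie 19 bases in Mir30a and 16 in Mir30c-1.

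The threshold cycle (Ct) is the PCR cycle at which an assay's signal crosses a set level, and it falls by 1 for each doubling of template. The log2 relative abundance, the mean control Ct minus the Ct of the assay, is used below; 0 means as early as the mean of the controls, and 1 unit is a doubling. All 5 members were in the first of 2 blocks of assays, block A, which has 5 endogenous small RNA controls of its own (U6, U87, Y1, snoRNA135 and snoRNA202). The mean Ct of these controls in block A was 22.8, 20.3 and 19.3 in KO replicates 1, 2 and 3, against 21.1, 20.6 and 19.1 in WT replicates 1, 2 and 3 (exact permutation p = 0.8, two-sided). With 3 samples against 3 such a test cannot give a p under 0.1. KO replicate 1 had the latest controls and the fewest miRNA assays below Ct 35, 219, against 277 and 290 in the other KO samples and 307 to 309 in the WT samples. Relative to their mean, the controls of block A differed between KO and WT by -0.16 to 0.12 on the log2 scale. All 6 myeloid and macrophage markers (miR-223, miR-142-3p, miR-142-5p, miR-21, miR-146a and miR-155) were below Ct 35 in every sample. Their summed abundance, in multiples of the control level, was 7.96 to 14.4 in KO and 28.3 to 52.6 in WT, so it too differed between the genotypes; 3 of them, miR-223, miR-142-3p and miR-21, passed the test described below, which 37.2% of the 282 tested assays passed as lower, and the log2 differences for the 6 lay between -2.21 and -1.44. miR-142-5p did not pass (limma, adjusted p = 0.0735) but did with the replicate number as a block (0.0483), and miR-146a and miR-155 passed without KO replicate 3 (0.0458 and 0.0435). Without KO replicate 1 miR-223 did not pass (limma, adjusted p = 0.0663), and miR-146a and miR-155 were at 0.113 and 0.368. Without KO replicate 2 or any 1 of the WT samples none of the 6 passed (limma, adjusted p from 0.0581 to 0.3). The liver marker miR-122 was at Ct 40, the value listed for wells without amplification, in all 6 samples, and neither of the 2 erythroid assays was below Ct 35 in all samples of a group. Of the other lists, 3 of 3 lymphocyte, 4 of 4 stromal, 1 of 2 endothelial, 3 of 6 epithelial, 1 of 3 neural and 0 of 3 muscle markers were below Ct 35 in all KO samples, against 3, 4, 2, 5, 2 and 0 in all WT samples. By the test, 1 epithelial marker (miR-429) and 1 neural marker (miR-128a) were lower in KO. miR-429 was below Ct 35 in 1 KO sample only and was tested because of its WT values. Its values in KO replicates 1 and 2 were set to Ct 35, so the size of its fall is not measured. It did not pass without KO replicate 1 or without KO replicate 2 (limma, adjusted p = 0.0772 and 0.0581). Summed abundance of the lymphocyte markers was 0.0686 to 0.506 in KO and 0.982 to 1.41 in WT, with 2 of 3 lower (miR-181a, and miR-342-3p, which had an adjusted p of 0.0547 with the replicate block), and that of the stromal markers 0.0484 to 0.0987 in KO and 0.00508 to 0.615 in WT, with 0 of 4 past the test; these counts too stand beside the 37.2% of all tested assays. The part of cell composition in the miR-30 values was not tested.

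All members were less abundant in KO than in WT macrophages, and 4 of the 5 passed the test. Most of the panel moved the same way: 247 of 282 tested assays (87.6%) had a difference below 0, and 105 (37.2%) were lower in KO by the same test. In these cultures fewer cells with a miRNA and less of it per cell cannot be told apart.

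miR-30b was at -1.04, -0.45 and -0.22 in KO replicates 1, 2 and 3, and at 1.09, 0.99 and 0.85 in WT replicates 1, 2 and 3. Every KO sample lay below every WT sample, with a gap of 1.08 between the nearest values, and the WT samples lay closer together. The mean was -0.57 ± 0.42 in KO and 0.98 ± 0.12 in WT (SD, n = 3 each), and miR-30b fell 2.92-fold (log2 -1.55 ± 0.49, SE; limma, adjusted p = 0.0471). Without KO replicate 3 the log2 difference of miR-30b was -1.72 (adjusted p = 0.0548).

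miR-30c, made from 2 loci, was at -1.78, -0.59 and -0.08 in the KO samples and at 0.68, 0.93 and 1.14 in the WT samples. The groups did not overlap, but the gap between them, 0.76, was the narrowest of the 5 members. The difference was 3.32-fold (log2 -1.73 ± 0.60, SE, n = 3 per group), which did not pass the test (limma, adjusted p = 0.0564); with the replicate number as a block it did (adjusted p = 0.0464). Without KO replicate 1 the log2 difference of miR-30c was -1.25 (adjusted p = 0.0594), and without KO replicate 3 it was -2.10 (adjusted p = 0.0462).

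miR-30a was at -4.20, -3.23 and -3.02 in the KO samples and at -1.27, -1.39 and -1.50 in the WT samples. Again no KO sample reached a WT sample, and KO replicate 1 was the lowest. Its fall was 4.28-fold (log2 -2.10 ± 0.53, SE, n = 3 per group; limma, adjusted p = 0.0321), which leaves 23.4% of the WT level.

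miR-30e, which differs from miR-30a by 1 base, was at -5.09, -4.22 and -3.88 in the KO samples and at -2.37, -2.40 and -2.55 in the WT samples. The 3 WT samples lay close together, all above the KO samples. miR-30e fell 3.89-fold (log2 -1.96 ± 0.53, SE, n = 3 per group; limma, adjusted p = 0.034).

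miR-30d was at -6.26, -4.65 and -4.65 in the KO samples and at -2.74, -2.59 and -2.88 in the WT samples. KO replicate 1 stood well below the other KO samples, which were alike. With a 5.48-fold fall miR-30d changed most of the 5 (log2 -2.45 ± 0.61, SE, n = 3 per group; limma, adjusted p = 0.0321), and 18.3% of the WT level was left. Without KO replicate 1 its log2 difference was -1.92 (adjusted p = 0.0275). Without KO replicate 2 or any 1 of the WT samples miR-30d did not pass (limma, adjusted p from 0.056 to 0.111).

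**Figure D1:**
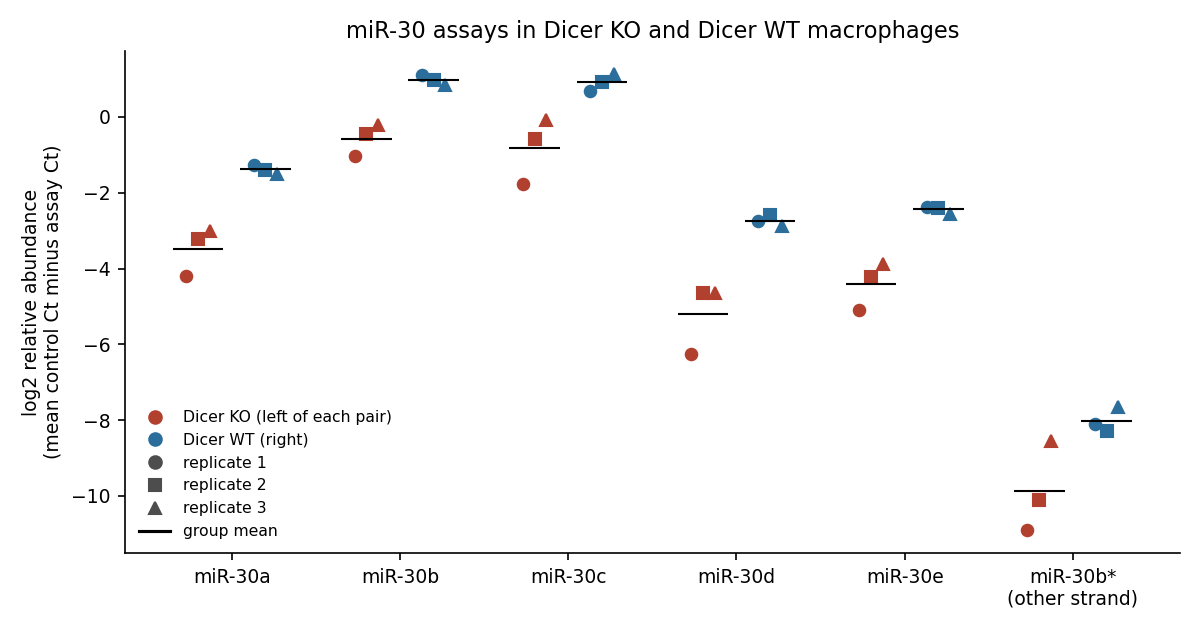
Log2 abundance relative to the 5 controls of the same block (vertical axis) for each miR-30 assay in the 3 Dicer KO (left, red) and 3 Dicer WT (right, blue) samples, with marker shapes for replicates and bars for group means. Every KO sample of the 5 members lies below every WT sample of the same member, as in 59.9% of the 282 tested assays, and KO replicate 1 is the lowest in each; miR-30b*, the other strand of the miR-30b hairpin, was measured in block B.

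These falls were of the size seen in the panel as a whole. Of 282 assays tested, those below Ct 35 in all 3 samples of at least 1 group, 105 (37.2%) were lower and 1 (0.355%) was higher in KO at an adjusted p under 0.05, beside 4 and 0 of the 5 members. No KO sample reached the lowest WT sample in 5 of 5 members and in 169 of the 282 assays (59.9%). The median log2 difference was -1.96 over the members, 3.89-fold lower, and -1.91 over all tested assays, 3.76-fold lower. By size of fall the members ranked 70 (miR-30d), 114 (miR-30a), 138 (miR-30e), 157 (miR-30c) and 175 (miR-30b) of 282. The calls themselves were close to the threshold: adjusted p values of the members lay between 0.0321 and 0.0564, and without KO replicate 2, WT replicate 1, WT replicate 2 or WT replicate 3 the number of members that passed was 0 and the number of assays lower was 3, 2, 2 and 2, while the medians of the members stayed between -2.05 and -1.92. Without KO replicate 1 or KO replicate 3, 4 members passed, beside 101 of 293 (34.5%) and 112 of 285 (39.3%) tested assays lower in KO. The authors' deposited table of fold changes, KO over WT, gave 0.256 for miR-30a, 0.364 for miR-30b, 0.344 for miR-30c, 0.212 for miR-30d and 0.282 for miR-30e, all lower in KO, in the same order of size. That table comes from the same Ct values and all members are in block A, so the shared direction and order are no separate support.

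**Figure D2:**
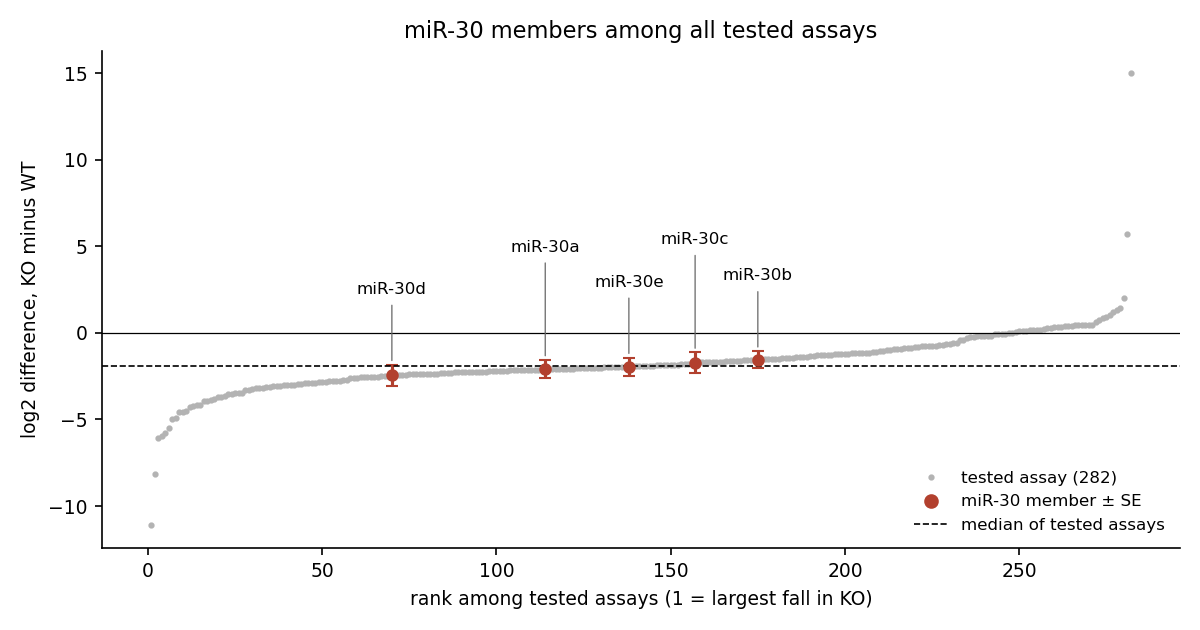
Log2 difference, KO minus WT (vertical axis), of all 282 tested assays in order of size (horizontal axis, rank 1 is the largest fall), with the 5 miR-30 members in red ± SE. The members lie between ranks 70 and 175, around the dashed median of -1.91.

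The WT samples agreed closely for the members. The SD over the 3 WT samples was 0.10 for miR-30e, 0.12 for miR-30a, 0.12 for miR-30b, 0.14 for miR-30d and 0.23 for miR-30c, against a median of 0.50 over the 201 assays below Ct 35 in all 6 samples. By increasing WT SD they ranked 9, 11, 12, 18 and 42 of the 201. In KO the SD was 0.42 for miR-30b, 0.62 for miR-30e, 0.63 for miR-30a, 0.87 for miR-30c and 0.93 for miR-30d, against a median of 0.83 over the same assays. The spread within KO was thus wider than within WT for each member. Whether it differs between the genotypes was not tested. Close agreement in WT was not particular to miR-30. In the miR-26 and miR-29 families, taken up below, the WT SD was 0.066 for miR-26a (rank 7) and 0.13 for miR-29c (rank 15). It was 0.16 for miR-26b (rank 21) and 0.20 for miR-29a (rank 33), but 0.81 for miR-29b (rank 157).

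The KO samples did not fall equally. In KO replicate 1 the members were 4.04-fold (miR-30b) to 11.5-fold (miR-30d) below the WT mean, in KO replicate 2 from 2.69-fold (miR-30b) to 3.78-fold (miR-30d), and in KO replicate 3 from 1.99-fold (miR-30c) to 3.78-fold (miR-30d). The median of the 5 was -2.69, -1.78 and -1.45 on the log2 scale in KO replicates 1, 2 and 3, beside -2.29, -1.65 and -1.42 for all 282 tested assays. The order of the KO samples was therefore the same for the family and for the panel, and KO replicate 1, the lowest, was also the sample with the latest controls; the part of RNA amount in this was not tested.

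The order of the members by abundance was the same in both genotypes: miR-30b first, then miR-30c, miR-30a, miR-30e and miR-30d. The means for these were -0.57, -0.82, -3.48, -4.40 and -5.19 in KO and 0.98, 0.92, -1.39, -2.44 and -2.74 in WT. These are levels of different assays, whose efficiencies are not known, so the distances between them are not ratios of molecules. miR-30b and miR-30c overlapped in both genotypes. Each of miR-30a, miR-30e and miR-30d also overlapped its neighbour across the KO samples, but within each of the 6 samples miR-30a was above miR-30e, and miR-30e above miR-30d.

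The ratio of 2 members within a sample needs no control, because both assays belong to block A and the control Ct cancels. For the 10 pairs, the log2 ratio in KO was set against that in WT by an exact permutation test over the 6 samples (two-sided), with Benjamini-Hochberg adjustment over the 10 pairs. With 3 samples against 3 no pair can pass this test. The smallest adjusted p was 0.167, shared by the 6 pairs whose KO and WT samples did not overlap. How often pairs of other assays in the panel do not overlap was not computed, so this count has no background to stand beside. The replicate numbers were also used as pairs, by taking the KO ratio minus the WT ratio of the same number. Each pair of members is written with the one that fell more first, so a mean difference below 0 is fixed by that order. Within it, 3 of 3 same-number differences were below 0 in each of the 10 pairs, which reuse the same members and are not independent. The exact sign-flip test of 3 such differences cannot give a two-sided p under 0.25, the value of every pair. In the 3 pairs that set miR-30a, miR-30d or miR-30e over miR-30b, every KO ratio was below every WT ratio.

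The widest pair joined the neighbouring hairpins of miR-30d and miR-30b. The log2 ratio of miR-30d to miR-30b was -5.22, -4.20 and -4.43 in KO replicates 1, 2 and 3, and -3.83, -3.58 and -3.73 in WT replicates 1, 2 and 3. All KO samples were lower, and KO replicate 1 was the farthest. The mean ratio was -4.62 ± 0.54 in KO and -3.71 ± 0.13 in WT (SD, n = 3 each), a difference of -0.91 ± 0.32 (SE; exact permutation p = 0.1, adjusted p = 0.167), and -0.60 without KO replicate 1.

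miR-30a against miR-30b was the steadiest of these pairs in WT, with log2 ratios of -2.36, -2.37 and -2.35, and it was at -3.17, -2.78 and -2.79 in KO. The 2 groups were clearly apart. The difference was -0.55 ± 0.13 (SE, n = 3 per group; exact permutation p = 0.1, adjusted p = 0.167). For miR-30e against miR-30b it was -0.41 ± 0.12, with the same p values and again no overlap.

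miR-30a and miR-30e, which share all but 1 base, had close ratios in the 2 genotypes. Their log2 ratio was 0.89, 0.99 and 0.87 in KO and 1.10, 1.01 and 1.05 in WT, a difference of -0.14 ± 0.05 (SE, n = 3 per group; exact permutation p = 0.1, adjusted p = 0.167), with every KO ratio below every WT ratio. The log2 ratio of miR-30d to miR-30e changed by -0.50 ± 0.22 with no overlap, and that of miR-30d to miR-30a by -0.36 ± 0.20 with overlap (exact permutation p = 0.2, adjusted p = 0.286). The same-number differences of miR-30d to miR-30a were -0.59, -0.22 and -0.26, with an SE over them of 0.12. Without KO replicate 1 the 2 differences were -0.31 and -0.18.

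Pairs with miR-30c had the widest spread in WT. Its pairs with miR-30a, miR-30e and miR-30b overlapped between the genotypes, with differences of -0.37 ± 0.25 for miR-30a over miR-30c, -0.23 ± 0.24 for miR-30e over miR-30c and -0.18 ± 0.33 for miR-30c over miR-30b (SE, n = 3 per group; exact permutation p = 0.3, 0.5 and 0.6). The last of these turned to 0.07 without KO replicate 1. Only the pair with miR-30d did not overlap, at -0.72 ± 0.24 (exact permutation p = 0.1). Taken by replicate number, the spread was smaller, but that pairing was itself chosen from the values of these samples. The same-number differences were -0.48, -0.32 and -0.30 for miR-30a over miR-30c, -0.27, -0.30 and -0.11 for miR-30e over miR-30c, and -0.32, -0.08 and -0.15 for miR-30c over miR-30b, with SEs over the 3 of 0.059, 0.059 and 0.071. The 3 differences of each pair had 1 sign. Their mean is negative by the order of writing, and the pairs share members, so this is no separate support for a difference.

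**Figure D3:**
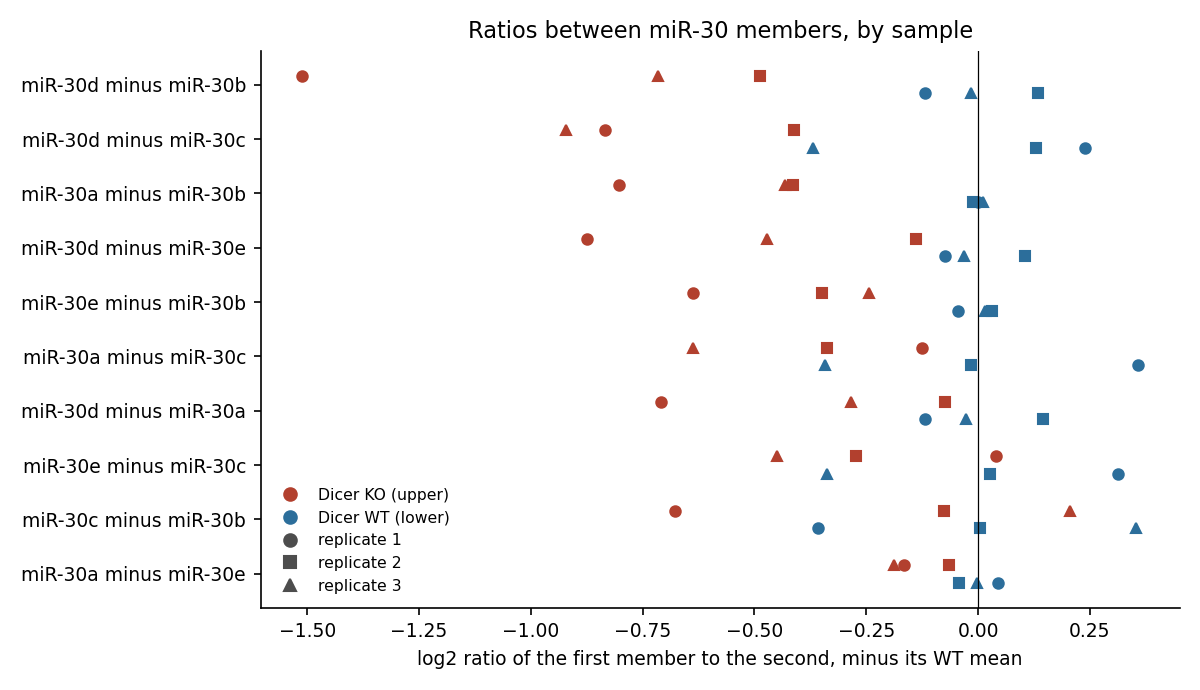
Log2 ratio of 2 miR-30 members within each sample, shown after subtraction of the pair's WT mean (horizontal axis), for the 10 pairs (vertical axis), with KO samples in red above WT samples in blue. In 6 pairs all KO samples lie to the left of all WT samples, farthest for miR-30d against miR-30b. The member that fell more is written first, which fixes the side. The share of such pairs among other assays of the panel was not computed.

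The other strand of a miR-30 hairpin was represented by 1 assay, miR-30b* in block B, the passenger strand that is normally degraded when the guide is loaded. It was at -10.91, -10.12 and -8.55 in KO and at -8.11, -8.29 and -7.66 in WT, each relative to the controls of block B. The KO samples lay below the WT samples with a narrow gap of 0.26. The difference of -1.84 ± 0.71 (SE, n = 3 per group) did not pass the test (limma, adjusted p = 0.0728). Without KO replicate 3 it was -2.49 (limma, adjusted p = 0.0352), where 112 of 285 tested assays (39.3%) were lower. Among the 201 assays measured in all samples the adjusted p of miR-30b* was 0.0399 (limma), and 114 of the 201 (56.7%) were lower. Set against its guide, the log2 ratio of miR-30b* to miR-30b was -9.29 ± 0.84 in KO and -9.00 ± 0.42 in WT (SD, n = 3 each), a difference of -0.29 ± 0.54 (SE; exact permutation p = 0.6), which is within the spread of the samples. The seed mate miR-384-5p, a miRNA with the same bases 2 to 8, was at Ct 40, 40 and 37.0 in KO and at 40, 40 and 34.3 in WT, was below Ct 35 in 1 WT sample only and was not tested.

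How far the members fell depended on what they were set against. With U6 alone as the reference the log2 differences were -2.19 for miR-30a, -1.64 for miR-30b, -1.83 for miR-30c, -2.55 for miR-30d and -2.05 for miR-30e, and all 5 passed (limma, adjusted p from 0.0318 to 0.0498), as did 117 of the 282 tested assays (41.5%). Without any reference they were -2.67, -2.12, -2.30, -3.03 and -2.53, the SE of miR-30a was 1.53, and 0 passed (adjusted p from 0.256 to 0.295). Against the mean of the miRNA assays of the block measured in all 6 samples, which removes a shift common to the miRNAs, the differences were -0.21 ± 0.35 for miR-30a, 0.34 ± 0.36 for miR-30b, 0.16 ± 0.45 for miR-30c, -0.57 ± 0.38 for miR-30d and -0.07 ± 0.36 for miR-30e (SE, n = 3 per group). On that scale miR-30b and miR-30c turned positive, 0 members passed (adjusted p from 0.482 to 0.926), and the median of all tested assays was -0.20. The order of the members, with the largest fall for miR-30d and the smallest for miR-30b, is the same under each of these references, since all members are in block A.

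**Figure D4:**
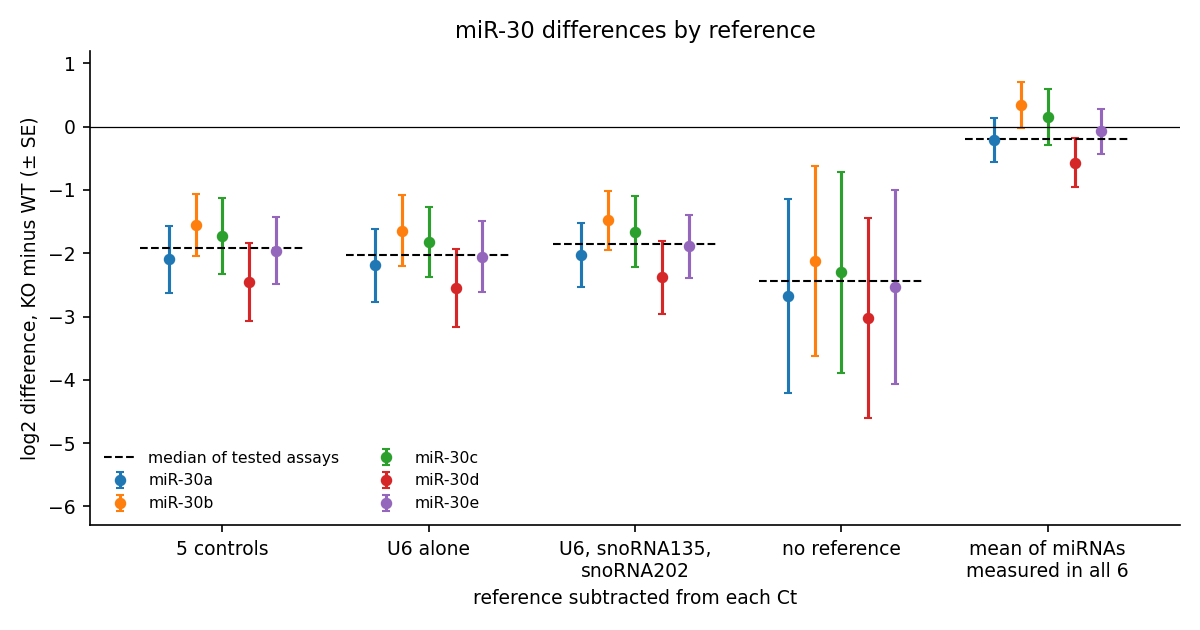
Log2 difference, KO minus WT, of the 5 miR-30 members ± SE (vertical axis) under 5 references (horizontal axis), with the median of the 282 tested assays dashed. The members follow the dashed median under each reference, which runs from -2.45 without a reference to -0.20 with the mean of the miRNAs and is -1.91 with the 5 controls.

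Pattern over the samples was compared by centring each assay on its own mean over the 6 samples and taking the root mean square distance, in log2 units, from the centred mean of the 5 members. The members themselves lay at 0.06 (miR-30e), 0.09 (miR-30a), 0.22 (miR-30c), 0.26 (miR-30b) and 0.30 (miR-30d). Each member is part of this mean, which makes its own distance smaller than that of an assay outside it. Of the 196 other assays measured in all 6 samples the nearest were miR-532-3p (0.08), miR-140 (0.15), miR-29c (0.15), let-7f (0.18) and miR-532-5p (0.19), against a median distance of 0.64. All 5 were in block A. Their levels in KO were 4.09-fold (miR-532-3p), 3.96-fold (let-7f), 3.55-fold (miR-140) and 3.13-fold (miR-532-5p) below those in WT, and the log2 difference of miR-29c was -1.71. Because the pattern holds the step between KO and WT, assays chosen by it differ between the genotypes by about as much as the members. No test of them is given here. The test of miR-29c appears below only because it belongs to the miR-29 family, and it carries the same limit. These distances share the same 6 samples and controls and describe likeness only.

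**Figure D5:**
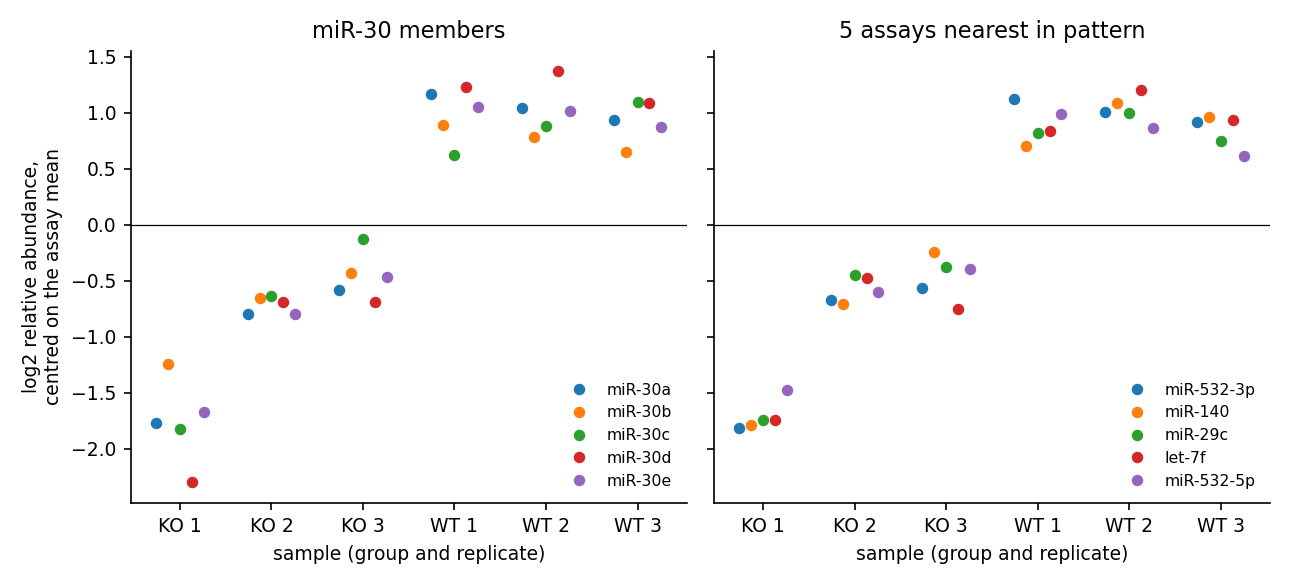
Log2 relative abundance of each assay minus its own mean over the 6 samples (vertical axis), by sample (horizontal axis), for the 5 miR-30 members (left) and the 5 assays nearest to their mean pattern (right). In both panels KO replicate 1 is the lowest sample. The WT values run from 0.63 to 1.37 at left and from 0.62 to 1.21 at right.

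Of 2 other broadly expressed families in the same block, miR-26 had 0 of 2 members and miR-29 2 of 3 members past the test, beside 4 of 5 for miR-30 and 37.2% of all tested assays. miR-26a was at -2.27 ± 0.78 and miR-26b at -1.51 ± 0.53 (SE, n = 3 per group; limma, adjusted p = 0.0562 and 0.0583). miR-29a fell 4.14-fold and miR-29b 5.14-fold (limma, adjusted p = 0.0471 and 0.034), and miR-29c, at -1.71 ± 0.57, did not pass (0.0521). Without KO replicate 1 the log2 difference was -1.48 for miR-26a, -1.45 for miR-29a and -1.27 for miR-29c, which then passed (0.0425), and without KO replicate 3 it was -2.90 for miR-26a. Without KO replicate 2 or any 1 of the WT samples neither miR-29a nor miR-29b passed (adjusted p from 0.0634 to 0.151), and without KO replicate 3 miR-29b did not (0.053) and miR-26a did (0.0363). The medians were -1.89 for miR-26 and -2.05 for miR-29, beside -1.96 for miR-30. Among the 201 assays measured in all 6 samples, every member of miR-26, miR-29 and miR-30 passed (limma, adjusted p from 0.0141 to 0.0349). There 114 of the 201 (56.7%) were lower. With Ct values set to at most 32, every member passed as well (limma, adjusted p from 0.0217 to 0.0443), beside 117 of 246 tested assays (47.6%). The counts past the test thus do not set these families apart. The difference between these families was not tested.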

How the data were processed

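The deposited Ct scores are not normalized and fill 608 rows in 2 blocks, with wells without amplification at 40. The deposited relative quantities, as a ratio to WT, and fold changes come from the authors' own normalization. Per the labels' protocols, the mirVana kit was used for RNA and TaqMan reagents for reverse transcription and preamplification; cycler and software are not given in the sources used here. Ct values at or above 35 were set to 35, the mean Ct of the 5 controls of the same block was subtracted, and the sign was turned. For KO against WT, each 3 mice, limma 3.58.1 (R 4.3.3) fitted genotype alone (lmFit, eBayes); two-sided p values were adjusted by Benjamini-Hochberg over the 282 tested assays, with a threshold of 0.05, and the fit was tested on simulated data. Permutation tests used scipy 1.17.1 in Python 3.11.15. Same-numbered samples deviated together (correlations of 0.48, 0.59 and 0.29 over 201 assays, against -0.43 to -0.09 for unlike numbers). These are deviations from each group's own mean, which cancel within a group. A positive value for like numbers therefore forces negative values for unlike ones, and the contrast is partly built in. The replicate numbers were treated as pairs on the evidence of the values, with no stated batch. Results by replicate number are thus no separate support for the pairing. Named were the members, the other strands, seed mates, controls, the 5 nearest patterns, the miR-26 and miR-29 families and cell type markers. Members and lists were chosen with earlier results of these data known. The number of samples, and a control Ct as the sole measure of input, limit the precision. Alternatives covered the reference, the ceiling, the filter, the replicate block, each sample left out and the authors' ratios.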

Additional observations from a re-analysis of the deposited data

How the results depend on the processing

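The fall of all 5 members in KO kept its direction under 15 of 16 alternatives. For the ceilings, the filters and the replicate block this was fixed in advance and is no support. Every member Ct was below each ceiling and the replicates are balanced, so the members' differences could not change there. The authors' ratios gave the members the same differences as the reference of U6, snoRNA135 and snoRNA202, so they are not a separate alternative. With the mean of the miRNAs as reference miR-30b was at 0.34 and miR-30c at 0.16. Under that reference miR-140, miR-29c, miR-532-5p, miR-26b and miR-142-5p turned to 0.0582, 0.18, 0.24, 0.38 and 0.45. The number past the threshold was less firm. Against 4 members and 105 assays lower, it was 0 members and 2 assays with the mean of the miRNAs, without a reference and without a filter, where 596 assays were tested; with 1 sample left out it ranged from 0 to 4 members and from 2 to 112 assays. The median of the members was -0.0715 with the mean of the miRNAs and -2.53 without a reference, and between -2.21 and -1.61 with 1 sample left out. With the replicate block 5 members and 118 assays passed, 92 of them in both fits, and the block changed the call of miR-30c, miR-342-3p and miR-142-5p and of no other miRNA whose adjusted p the text gives; with the authors' ratios or a ceiling of 40, 3 members and 79 or 80 assays passed. miR-30b* passed at -1.84 among assays measured in all 6 samples, where 5 members and 114 of 201 assays (56.7%) were lower. With 1 sample left out miR-30b* ranged from -2.49 to -1.31. Differences between members kept their sign with 1 sample left out, except miR-30c over miR-30b, which ranged from -0.38 to 0.065, the last without KO replicate 1. The KO minus WT difference in control Ct ranged from -0.44 to 1.31 in block A and from -0.53 to 1.07 in block B, negative without KO replicate 1. The causes were not tested.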
